A study of Mus musculus with 12 samples.

Results

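The interferon-responsive ADP-ribosyltransferase genes *Parp9*, *Parp10*, *Parp11*, *Parp12* and *Parp14*, their family member *Zc3hav1* and the partner gene *Dtx3l* were examined in dendritic cells (DCs) grown from mouse bone marrow, with the DNA-repair genes *Parp1* and *Parp2* as comparators. Members were taken by gene symbol, which gave 9 of the 55471 genes in the count table, 7 of them interferon-responsive and 2 comparators. All 9 passed the filter on low counts, which kept 18228 genes.

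RNA-seq was performed on 12 libraries in 4 groups of 3: unstimulated shControl, unstimulated sh*Ppargc1b*, shControl with IFN-β and sh*Ppargc1b* with IFN-β. All cells were grown with GM-CSF from bone marrow of female C57BL/6 mice and carried a retroviral short hairpin RNA, against firefly luciferase in shControl and against *Ppargc1b*, the gene of the co-activator PGC-1β, in sh*Ppargc1b*. Transduced cells were selected by a human CD8 reporter encoded on the vector, and IFN-β was given for 6 h. The labels give neither the animals' age nor the hairpin, and the study's methods give adult animals and name the hairpin used in most of its experiments, without naming the one behind these libraries. Nothing in the labels says that libraries of a group came from separate animals or cultures, so p-values measure the spread between these libraries, which may be technical. In bulk RNA, fewer cells of a type and less RNA per cell cannot be told apart.

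ADP-ribosyltransferases of the PARP family transfer ADP-ribose from NAD+ to proteins or nucleic acids. PARP1 and PARP2 build chains of ADP-ribose at DNA breaks, whereas PARP10, PARP11, PARP12 and PARP14 add single units, and the *Zc3hav1* product (ZAP, also called PARP13) has no transferase activity and binds CpG-rich viral RNA. Type I interferon acts through the receptor IFNAR and a complex that holds STAT2 and IRF9 and binds the interferon-stimulated response element (ISRE) in the promoters of its targets.

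Library totals ranged from 49.9 M to 77.7 M counts, and each member had at least 982 counts in every library. *Ppargc1b* was examined first, as a check of the labels. Without IFN-β it stood at 34.5 ± 1.94 CPM (TMM-scaled counts per M counts of the library, SD, n = 3) in shControl, and sh*Ppargc1b* had 19.4 ± 0.851 CPM, or 56.3% of control (edgeR adjusted p = 3.2e-05). With IFN-β it was at 67.2% of control, so the knockdown was partial. All 10 dendritic markers were among the genes tested, with a summed level of 4656 to 6965 CPM per library, and the 9 macrophage markers summed to 2281 to 3237 CPM, while 7 lymphocyte markers stayed at or under 1.03 CPM and 6 erythroid markers at or under 0.295 CPM. In sh*Ppargc1b* cells 6 of the 10 dendritic markers were higher without and with IFN-β. Of the 9 macrophage markers 3 (without) and 4 (with) were lower and 1, *Cd14*, was higher (0.44, adjusted p = 7.0e-05, and 0.23, adjusted p = 0.0104). The 7 neutrophil markers summed to 40.9 to 95.4 CPM in unstimulated shControl and 89.8 to 158 CPM in unstimulated sh*Ppargc1b*, with *S100a8* higher (0.83 without and 0.88 with IFN-β), and of the 6 mast cell and basophil markers *Gata2* was higher (1.64 and 1.47). Of the 4 plasmacytoid markers *Tcf4* was higher in unstimulated cells (0.56, adjusted p = 5.4e-05). Among 8 proliferation genes *Pcna* was higher (0.21) and *Mki67* lower (-0.53) in unstimulated cells. No gene of these 2 lists was called with the knockdown in treated cells. Over all genes 12.4% were called higher and 11.1% lower without IFN-β, and 11.5% and 12.7% with it. The part of these shifts in the differences of the PARP genes was not tested.

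The upstream sequences of *Parp11* and *Parp12*, the members that rose most with IFN-β, are shown because one of them holds an ISRE. RefSeq promoter windows, from 250 bases before to 50 bases after the annotated start, matched 6 of the 9 members in 7 windows, and *Parp9*, *Parp10* and *Parp14* had none. Both strands were searched for the ISRE core (TTTC, any 2 bases, TTTC), for its longer form with a G in front and for the gamma-activated site (TTC, any 3 bases, GAA). The 250 upstream bases are printed 5′ to 3′ in the direction of the gene (GRCm38.p6), and capitals mark the longer ISRE joined to the gamma-activated site, which share 3 bases.
*Parp11*, upstream start (chr6:127446590-127446839, plus strand): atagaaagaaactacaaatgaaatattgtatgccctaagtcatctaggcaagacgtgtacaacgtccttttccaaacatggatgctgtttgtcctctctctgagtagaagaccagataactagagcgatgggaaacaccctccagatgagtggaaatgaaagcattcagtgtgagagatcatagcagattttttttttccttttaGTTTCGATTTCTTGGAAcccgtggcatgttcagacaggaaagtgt
*Parp11*, downstream start (chr6:127453377-127453626, plus strand): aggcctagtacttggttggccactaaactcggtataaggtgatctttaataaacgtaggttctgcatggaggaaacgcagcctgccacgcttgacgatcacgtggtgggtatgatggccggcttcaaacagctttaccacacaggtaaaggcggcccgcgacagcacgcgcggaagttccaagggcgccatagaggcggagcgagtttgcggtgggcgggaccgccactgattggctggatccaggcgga
*Parp12* (chr6:39118350-39118599, minus strand): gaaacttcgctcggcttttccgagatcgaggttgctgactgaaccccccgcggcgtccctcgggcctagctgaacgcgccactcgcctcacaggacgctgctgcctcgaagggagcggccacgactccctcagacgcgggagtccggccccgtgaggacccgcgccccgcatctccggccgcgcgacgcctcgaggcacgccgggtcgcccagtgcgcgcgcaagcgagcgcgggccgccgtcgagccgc

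The joined motif of *Parp11*, GTTTCGATTTCTTGGAA, ran from 45 to 29 bases before the upstream start site, which lies 6787 bp before the downstream one. The other 6 windows, those of *Parp1*, *Parp2*, *Parp12*, *Zc3hav1*, *Dtx3l* and the downstream start of *Parp11*, held neither motif. Of all 32851 promoter windows of this length, 3.44% held the ISRE core, 0.819% its longer form and 8.3% the gamma-activated site. A match is a description of the letters and shows no binding.

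To determine how the family responded to IFN-β, treated and unstimulated shControl cells were compared first. All 7 interferon-responsive members rose, by 1.21 to 2.89 on the log2 scale (2.31- to 7.40-fold), with a median log2 fold change of 2.23 against -0.03 over all tested genes. Over all genes 23.7% were called higher and 24.6% lower, 48.2% together. *Parp1* fell and *Parp2* did not pass the test. In sh*Ppargc1b* cells the same 7 members rose, by 1.04 to 2.46, and *Parp1* fell again, where 21.4% of all genes were called higher and 21.2% lower, 42.6% together. These 8 members' treated and untreated libraries did not overlap in either cell population, as was so for 27.2% (higher) and 29.4% (lower) of all genes in shControl and 24.7% and 25.4% in sh*Ppargc1b*.

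**Figure D1:**
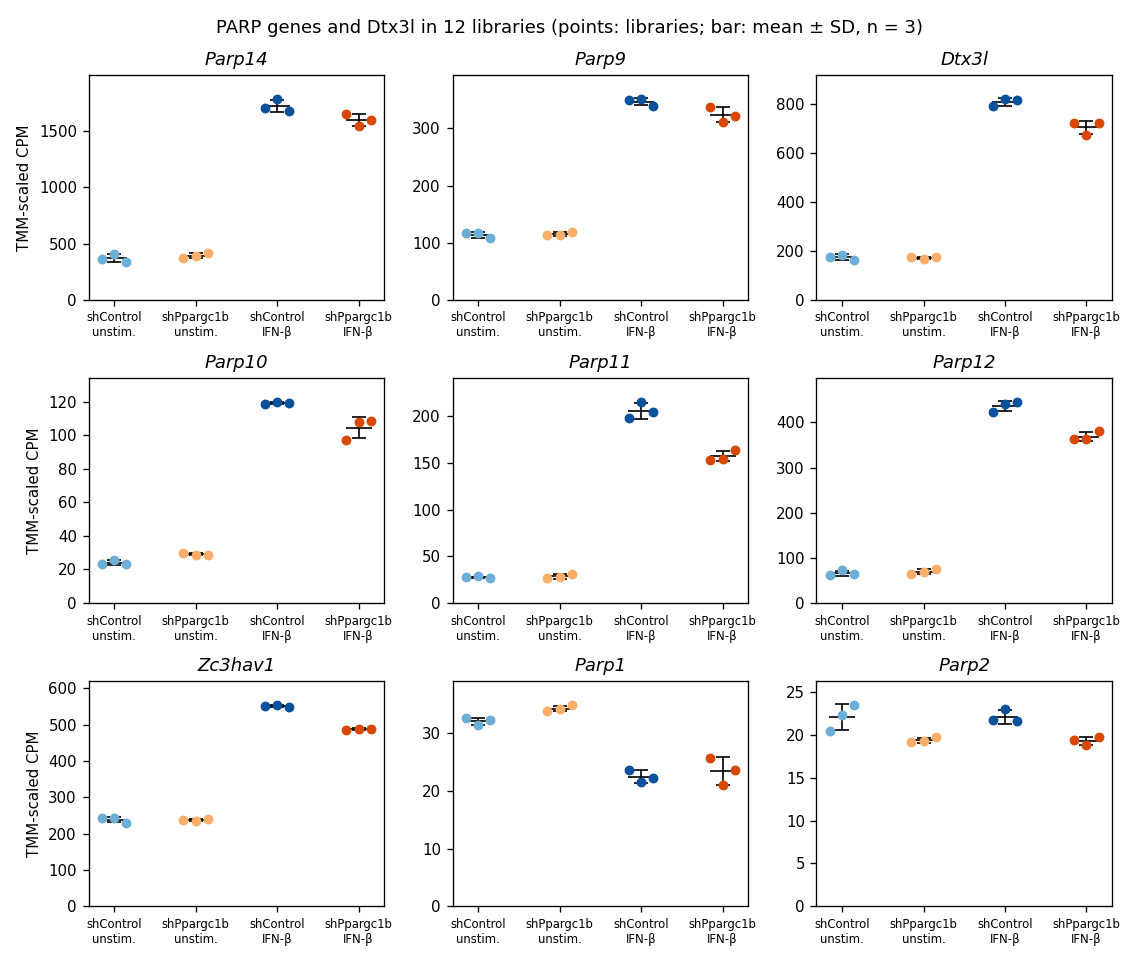
TMM-scaled CPM (y axis, from 0) of the 9 genes in the 4 groups (x axis), with each library as a point and a bar for the mean with its SD (n = 3). The 7 interferon-responsive genes are higher with IFN-β in all libraries, by 2.06- to 7.40-fold in the fit, *Parp1* is lower, and the *Parp2* points lie between 18.9 and 23.5 CPM.

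*Parp14*, *Dtx3l* and *Parp9* lie together within 139732 bp of chromosome 16. *Parp14* (ENSMUSG00000034422, chr16:35832874-35871544, minus strand) encodes a mono-ADP-ribosyltransferase with macrodomains, which bind ADP-ribose. Its level was 365, 406 and 335 CPM in the unstimulated shControl libraries and 1706, 1785 and 1681 CPM with IFN-β. In sh*Ppargc1b* it was 373, 393 and 414 CPM unstimulated and 1653, 1543 and 1597 CPM with IFN-β. All treated libraries stood far above all untreated ones, and with IFN-β the sh*Ppargc1b* libraries lay just under the shControl libraries without overlap. The log2 fold change with IFN-β was 2.23 ± 0.06 (SE, edgeR adjusted p = 1.2e-13) in shControl and 2.02 ± 0.06 in sh*Ppargc1b*. The knockdown difference did not pass the test in unstimulated cells (0.09 ± 0.06, adjusted p = 0.305) or in treated cells (-0.11 ± 0.06, adjusted p = 0.217). Without shControl unstimulated replicate 2 the difference in unstimulated cells was 0.17 and passed (adjusted p = 0.0453).

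*Dtx3l* (ENSMUSG00000049502, chr16:35926511-35939151, minus strand) encodes a Deltex-family E3 ubiquitin ligase that forms a complex with PARP9. It was at 175, 184 and 161 CPM in unstimulated and at 789, 819 and 816 CPM in IFN-β-treated shControl libraries. In sh*Ppargc1b* libraries it was at 174, 167 and 175 CPM without and 720, 674 and 719 CPM with IFN-β. The unstimulated groups overlapped, and the treated sh*Ppargc1b* libraries were all under the treated shControl libraries. *Dtx3l* rose by 2.22 ± 0.05 in shControl (adjusted p = 1.2e-14), with a rise of 2.03 ± 0.05 in sh*Ppargc1b*, and with IFN-β it was lower in sh*Ppargc1b* (-0.20 ± 0.05, adjusted p = 0.00677), at 87.2% of control.

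*Parp9* (ENSMUSG00000022906, chr16:35938470-35972605, plus strand) encodes a macrodomain protein that acts with DTX3L. Its level in shControl libraries was 116, 117 and 108 CPM unstimulated and 350, 352 and 340 CPM with IFN-β. In sh*Ppargc1b* it was 114, 113 and 118 CPM, and 338, 312 and 323 CPM with IFN-β. *Parp9* rose by 1.61 ± 0.04 (3.05-fold, adjusted p = 7.0e-14) in shControl and 2.82-fold in sh*Ppargc1b*. With IFN-β its sh*Ppargc1b* libraries lay under those of shControl without overlap, at a difference of -0.10 ± 0.04 that did not pass the test (adjusted p = 0.106) except without sh*Ppargc1b* IFN-β replicate 1 (-0.14, adjusted p = 0.0398).

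*Parp9* and *Dtx3l* are transcribed away from each other from starts that overlap by 682 bp, 458 bp of it in exons of both genes, which is 9.40% of the exon length of *Parp9* and 8.0% of that of *Dtx3l*. The strand setting of the counting is not given in the sources used here, so reads from the shared exons may not be told apart. The *Parp9* to *Dtx3l* count ratio, which needs no scaling between libraries, was 0.666, 0.634 and 0.670 in unstimulated shControl and 0.444, 0.429 and 0.417 with IFN-β. In sh*Ppargc1b* it was 0.651, 0.676 and 0.677, and 0.469, 0.463 and 0.449 with IFN-β. The ratio was lower in every treated library than in every untreated one, with a log2 difference of -0.61 in shControl and -0.54 in sh*Ppargc1b*. Both comparisons gave an exact two-sided permutation p of 0.1, the smallest that 3 libraries against 3 allow, and 0.133 after adjustment over the 4 group pairs compared. With IFN-β the ratio was higher in sh*Ppargc1b* by 0.10 on the log2 scale with no overlap (exact p = 0.1, adjusted 0.133), and without IFN-β the groups overlapped (0.03, exact p = 0.5, adjusted 0.5).

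**Figure D2:**
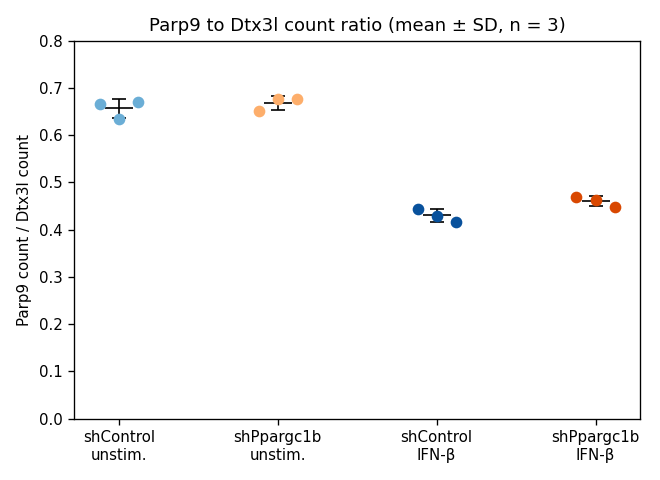
Ratio of the *Parp9* count to the *Dtx3l* count (y axis, from 0) in each library of the 4 groups (x axis), with a bar for the mean and its SD (n = 3). The means are 0.657 and 0.668 in the unstimulated and 0.430 and 0.460 in the IFN-β groups (shControl and sh*Ppargc1b*).

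The response was examined in the genes within 100 kb of these 3 members. *Kpna1*, which encodes a nuclear import receptor and lies 6.145 kb beyond the 3′ end of *Parp9*, did not pass with IFN-β, at -0.01 in shControl and -0.09 in sh*Ppargc1b* (adjusted p = 0.844 and 0.129), whereas with library totals it was lower (-0.25 and -0.30). *Hspbap1*, 4.397 kb beyond the 3′ end of *Parp14*, rose by 0.25 (adjusted p = 0.0112) and 0.28 (adjusted p = 0.00731), calls that were lost with library totals (0.01 and 0.08), and was lower in sh*Ppargc1b* in unstimulated (-0.37, adjusted p = 0.00213) and treated cells (-0.34, adjusted p = 0.00379). *Wdr5b* did not pass in either population, and *Fam162a* fell in sh*Ppargc1b* (-0.41, adjusted p = 0.00142) and in shControl stood at -0.20 (adjusted p = 0.0723, and -0.44 with a call under library totals), with an interaction of -0.21 that did not pass (adjusted p = 0.631). Of the predicted genes, *Gm49730*, which shares 110 bp of exon with *Parp14* on the same strand, rose by 2.65 and 2.38, and the pseudogene *Gm49728*, 0.613 kb past the 3′ end of *Parp14*, rose by 3.33 and 2.14 on 798 counts over all libraries; their reads may not be told apart from those of *Parp14*. The pseudogene *Gm10237* did not pass, and *Gm26838*, *Gm41467* and *Gm15564* were too low to test.

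**Figure D3:**
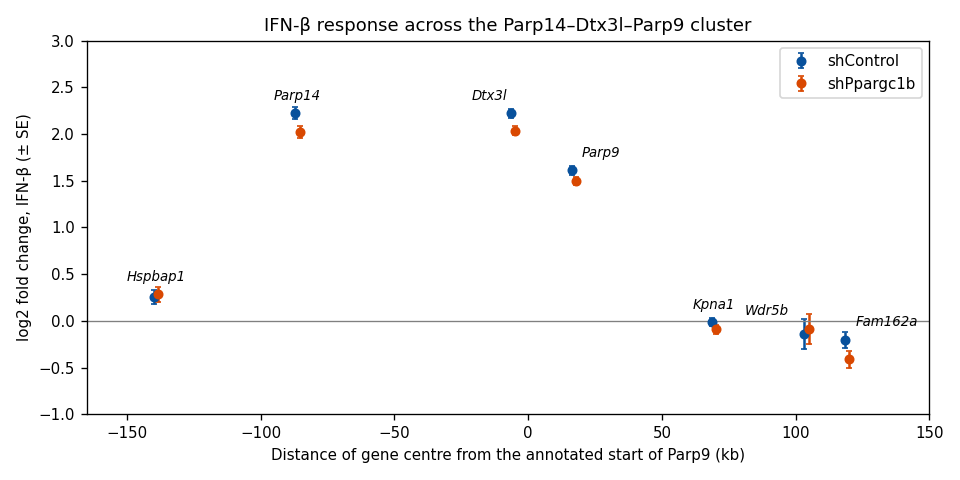
Log2 fold change with IFN-β (y axis, with its SE) of the protein-coding genes around *Parp14*, *Dtx3l* and *Parp9*, against the distance of each gene's centre from the annotated start of *Parp9* in kb (x axis), in shControl (blue) and sh*Ppargc1b* (orange). In shControl the 3 members lie between 1.61 and 2.23, and in both populations their 4 neighbours lie between -0.41 and 0.28.

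*Parp10* (ENSMUSG00000063268, chr15:76231174-76243441, minus strand) encodes a mono-ADP-ribosyltransferase with RNA-recognition and ubiquitin-interaction motifs. Unstimulated shControl libraries had 23.3, 25.7 and 23.3 CPM and treated ones 119, 120 and 119 CPM. In sh*Ppargc1b* the levels were 29.8, 28.6 and 28.9 CPM without and 97.2, 108 and 108 CPM with IFN-β. The sh*Ppargc1b* libraries were thus all above shControl before treatment and all under it with IFN-β. *Parp10* rose by 2.31 ± 0.05 in shControl (4.95-fold, adjusted p = 1.2e-14) and by 1.85 ± 0.05 in sh*Ppargc1b* (3.59-fold). It was higher in unstimulated sh*Ppargc1b* cells (0.27 ± 0.05, adjusted p = 0.00125) and lower in treated ones (-0.19 ± 0.05, adjusted p = 0.0101). Of its exon length 4.80% is shared with *Plec* on the same strand, which has 381267 counts in all against 47175 for *Parp10*.

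*Parp11* (chr6:127446840-127494261, plus strand), whose upstream sequence is printed above, encodes a mono-ADP-ribosyltransferase of the nuclear envelope. It was at 27.7, 28.5 and 27.3 CPM in unstimulated shControl and 198, 215 and 205 CPM with IFN-β, the largest rise of the 9 genes at 2.89 ± 0.06 (7.40-fold, adjusted p = 3.0e-15). Of all tested genes 239 rose more. In sh*Ppargc1b* its level was 26.8, 27.4 and 31.3 CPM without and 154, 155 and 164 CPM with IFN-β. Unstimulated groups overlapped, and in treated cells every sh*Ppargc1b* library was well under every shControl library. With IFN-β the difference was -0.39 ± 0.05 (adjusted p = 6.1e-05), 76.4% of control and the largest knockdown difference among the members.

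*Parp12* (chr6:39086410-39118349, minus strand) encodes a mono-ADP-ribosyltransferase with zinc fingers like those of ZAP. Its level was 62.8, 72.2 and 63.4 CPM in unstimulated shControl and 423, 442 and 445 CPM with IFN-β. In sh*Ppargc1b* it was 64.3, 69.2 and 74.3 CPM, and 362, 363 and 381 CPM with IFN-β. *Parp12* rose by 2.72 ± 0.06 in shControl (6.59-fold, adjusted p = 1.1e-14) and 2.41 ± 0.06 in sh*Ppargc1b*. The unstimulated groups overlapped (0.07, adjusted p = 0.476), and it was lower in sh*Ppargc1b* with IFN-β (-0.24 ± 0.06, adjusted p = 0.00528), at 84.5% of control.

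*Zc3hav1* (chr6:38305286-38354603, minus strand), the gene of the antiviral RNA-binding protein ZAP, lies 731806 bp from *Parp12*. Its level was 243, 242 and 230 CPM in unstimulated and 552, 553 and 548 CPM in treated shControl libraries. In sh*Ppargc1b* it was 237, 235 and 239 CPM, and 485, 489 and 489 CPM with IFN-β. The unstimulated groups overlapped, whereas with IFN-β the 2 groups stood apart by more than their whole ranges. It had the smallest rise of the 7, at 1.21 ± 0.03 in shControl (2.31-fold, adjusted p = 1.3e-13) and 1.04 ± 0.03 in sh*Ppargc1b*, and with IFN-β it was lower in sh*Ppargc1b* (-0.18 ± 0.03, adjusted p = 0.00128), at 88.4% of control.

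The comparators behaved differently from each other. *Parp1* (chr1:180568924-180601254, plus strand), the main DNA-break sensor of the family, was at 32.6, 31.4 and 32.3 CPM in unstimulated shControl and at 23.7, 21.6 and 22.2 CPM with IFN-β. Its levels in sh*Ppargc1b* were 33.9, 34.1 and 34.8 CPM, and 25.7, 21.0 and 23.6 CPM with IFN-β. *Parp1* therefore was not unresponsive: it fell by 0.51 on the log2 scale in shControl (SE 0.06, adjusted p = 7.5e-06), and in sh*Ppargc1b* it fell by 0.55 (adjusted p = 4.5e-06), to 70.0% and 68.2% of the unstimulated level. The summed level of 8 proliferation genes was 352 to 454 CPM in unstimulated and 328 to 365 CPM in treated shControl libraries. In sh*Ppargc1b* it was 271 to 388 and 253 to 341 CPM. With IFN-β 1 of the 8 was called higher and 2 lower in shControl, and 1 higher and 1 lower in sh*Ppargc1b*. The part of these genes in the *Parp1* difference was not tested. The knockdown differences of *Parp1* did not pass (0.10, adjusted p = 0.323, and 0.06, adjusted p = 0.582), although its unstimulated libraries did not overlap.

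*Parp2* (chr14:50807841-50821301, plus strand), which shares the break-repair role of *Parp1*, was at 20.4, 22.4 and 23.5 CPM in unstimulated and 21.8, 23.1 and 21.6 CPM in treated shControl libraries. It was at 19.2, 19.3 and 19.8 CPM in unstimulated and 19.4, 18.9 and 19.7 CPM in treated sh*Ppargc1b* libraries. With IFN-β its log2 fold change was 0.00 ± 0.06 in shControl (adjusted p = 0.970) and -0.01 ± 0.06 in sh*Ppargc1b* (adjusted p = 0.941), within 2 SE of -0.11 to 0.12 and -0.13 to 0.11. Scaling by library totals alone turned these into falls of -0.24 (adjusted p = 0.00306) and -0.21 (adjusted p = 0.00814), and it moved the median of all tested genes from -0.03 to -0.27 in shControl and from -0.02 to -0.22 in sh*Ppargc1b*. *Parp2* was lower in sh*Ppargc1b* in unstimulated cells (-0.19 ± 0.06, adjusted p = 0.0317) and in treated cells (-0.20 ± 0.06, adjusted p = 0.0247). Significance in unstimulated cells did not hold with all genes of at least 1 count (adjusted p = 0.224), with only the groups compared (0.0657) and without shControl unstimulated replicate 2 (0.0934) or 3 (0.142) or any of the unstimulated sh*Ppargc1b* replicates 1, 2 and 3 (0.0762, 0.0852 and 0.0605). The call in treated cells was lost with library totals (0.0511), which left 5 members lower, with all genes of at least 1 count (0.136) and without shControl unstimulated replicate 2 (0.0541), shControl IFN-β replicate 2 (0.0692), sh*Ppargc1b* unstimulated replicate 2 (0.0523) or 3 (0.0529) or sh*Ppargc1b* IFN-β replicate 2 (0.0558).

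To determine whether the family differed with the partial knockdown of *Ppargc1b*, sh*Ppargc1b* was set against shControl within each treatment. These comparisons share their libraries with the IFN-β comparisons above. In unstimulated cells 1 member was higher (*Parp10*) and 1 lower (*Parp2*), where 12.4% of all genes were called higher and 11.1% lower, 23.6% together. In IFN-β-treated cells 0 members were higher by edgeR, DESeq2 or limma-voom (0 also at an unadjusted p under 0.05), and 6 were lower by edgeR: *Parp2*, *Parp10*, *Parp11*, *Parp12*, *Dtx3l* and *Zc3hav1*, where 11.5% of all genes were called higher and 12.7% lower, 24.2% together. The median log2 difference of the 7 interferon-responsive members was 0.04 without and -0.19 with IFN-β, against 0.00 and -0.01 over all genes. Libraries of the treated groups did not overlap for 8 of 9 members, all lower in sh*Ppargc1b* and all but *Parp1*, as for 20.7% of all genes in that direction and 18.0% in the other. In unstimulated cells *Parp1* and *Parp10* were higher and *Parp2* lower without overlap, as for 18.4% of all genes in each direction.

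The interaction, which is the knockdown difference with IFN-β minus that without, tested whether the 2 differed. It was negative for all 7 interferon-responsive members (-0.46 to -0.11, median -0.20), and 2 of them passed, *Parp10* at -0.46 ± 0.07 (adjusted p = 0.00937) and *Parp11* at -0.43 ± 0.08 (adjusted p = 0.0205). The median was -0.0008 over all genes and -0.26 over the 11 genes of interferon signalling listed below. Negative values were thus not particular to these members. Over all genes 0.669% passed in this direction and 0.0603% in the other. The *Parp11* call was lost without shControl unstimulated replicate 1 (0.0593) or 3 (0.0869), and that of *Parp10* held without any 1 library. *Parp12* did not pass (-0.31 ± 0.08, adjusted p = 0.107), but it passed with all genes of at least 1 count (-0.32, adjusted p = 0.00096), by DESeq2 (-0.31, adjusted p = 0.0168), with a term for each run of 4 library codes (-0.31, adjusted p = 0.0222) and without shControl unstimulated replicate 2 (-0.36, adjusted p = 0.0367). *Parp14* (-0.20 ± 0.09, adjusted p = 0.406), *Dtx3l* (-0.19 ± 0.07, adjusted p = 0.307), *Zc3hav1* (-0.17 ± 0.05, adjusted p = 0.142) and *Parp9* (-0.11 ± 0.06, adjusted p = 0.562) did not pass, whereas by DESeq2 *Zc3hav1* passed (-0.17, adjusted p = 0.0115). For *Parp1* and *Parp2* it was -0.04 ± 0.09 and -0.01 ± 0.08 (adjusted p = 0.946 and 0.985).

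**Figure D4:**
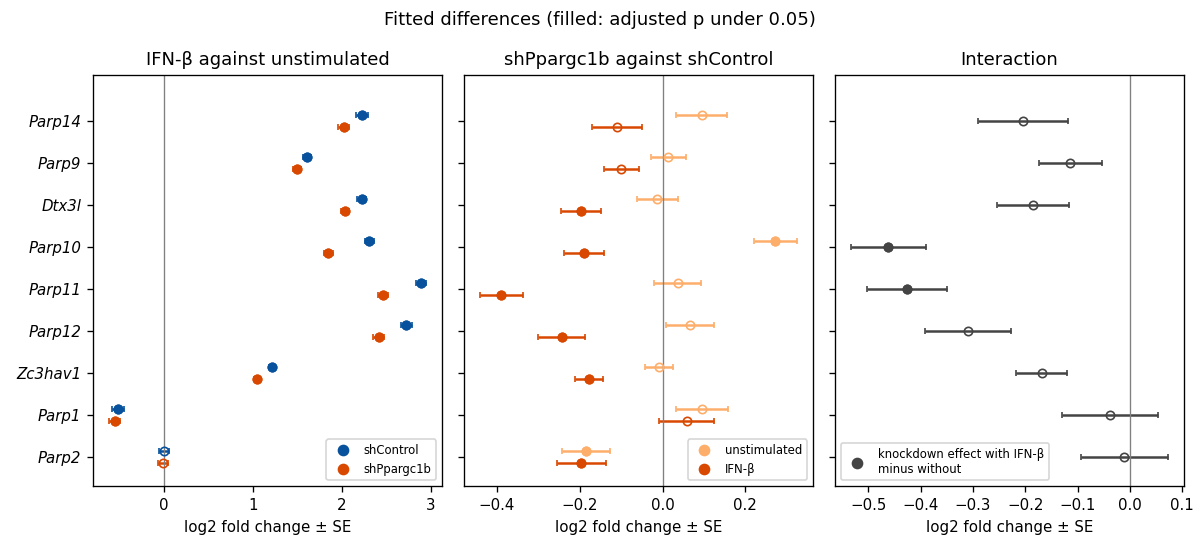
Log2 fold change with its SE (x axis) of the 9 genes (y axis) with IFN-β, with the knockdown and for the interaction, filled where the edgeR adjusted p was under 0.05. With IFN-β the shControl value exceeds the sh*Ppargc1b* value for each of the 7 interferon-responsive genes, and in the interaction *Parp10* and *Parp11* are filled.

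Levels were compared between genes on the scale of CPM per kb of exon. In unstimulated shControl the order was *Parp14* (39.6 CPM per kb), *Zc3hav1* (36.5), *Dtx3l* (30.3), *Parp9* (23.3), *Parp12* (16.6), *Parp2* (6.09), *Parp1* (6.06), *Parp10* (5.63) and *Parp11* (3.96). The libraries of *Parp14* and *Zc3hav1* overlapped, as did those of *Parp2* with *Parp1* and of *Parp1* with *Parp10*, so their order is not resolved. With IFN-β the order in shControl became *Parp14* (185 CPM per kb), *Dtx3l* (141), *Parp12* (109), *Zc3hav1* (84.5), *Parp9* (71.3), *Parp11* (29.3), *Parp10* (27.9), *Parp2* (6.11) and *Parp1* (4.25), with no overlap between neighbours. *Parp10* and *Parp11*, which were under both comparators in mean level before treatment, were several times above them with IFN-β. In sh*Ppargc1b* cells with IFN-β the order was the same except for *Parp10* (24.5) and *Parp11* (22.4), whose libraries overlapped, while in unstimulated sh*Ppargc1b* cells *Parp10* (6.81) stood above *Parp1* (6.48) and *Parp2* (5.36) without overlap.

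The family was then taken as a whole, as the 16 PARP genes tested, without *Dtx3l*. Their summed level was 248 ± 8.46 CPM per kb in unstimulated and 673 ± 13.3 in treated shControl, and 255 ± 2.21 and 610 ± 5.67 in sh*Ppargc1b* (SD, n = 3). The 6 interferon-responsive PARP genes held 50.7 ± 1.37% of it in unstimulated and 75.5 ± 0.189% in treated shControl, and 51.2 ± 1.31% and 74.1 ± 0.613% in sh*Ppargc1b*. *Parp14* went from 15.97% to 27.5% and *Parp12* from 6.68% to 16.2% in shControl, whereas *Zc3hav1* went from 14.7% to 12.6%. *Tiparp*, a mono-ADP-ribosyltransferase induced by the aryl hydrocarbon receptor, had the largest share in unstimulated shControl (17.8%) and 9.07% with IFN-β. *Parp1* and *Parp2* together with the 8 other PARP genes made up the rest. That rest includes *Parp3* and *Parp8*, which also rose with IFN-β, so the split follows the member list and not the response.

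**Figure D5:**
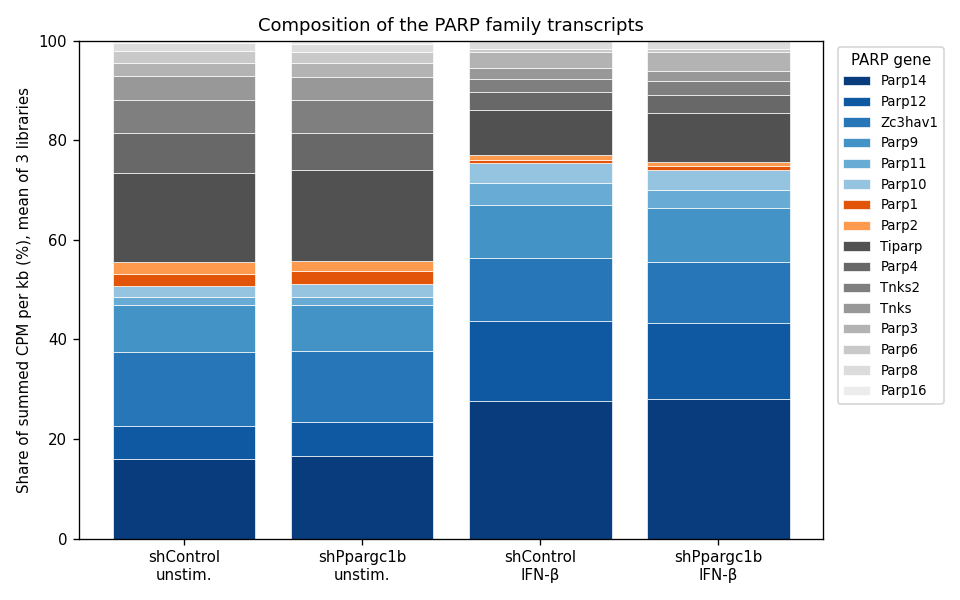
Share of the summed CPM per kb of 16 PARP genes (y axis, percent, mean of 3 libraries) held by each gene in the 4 groups (x axis), with interferon-responsive PARP genes in blue, *Parp1* and *Parp2* in orange and the others in grey. The blue share is 50.7% and 51.2% in the unstimulated and 75.5% and 74.1% in the IFN-β groups (shControl and sh*Ppargc1b*).

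Of the 8 other PARP genes, 5 rose with IFN-β in shControl (*Parp3*, *Parp8*, *Tiparp*, *Tnks* and *Parp4*) and 2 fell (*Parp6* and *Parp16*), with a median of 0.31. Beside them 23.7% of all genes were called higher and 24.6% lower. With library totals the calls of *Parp4* (0.07) and *Tnks* (0.08) were lost and *Tnks2* turned from 0.04 to a called -0.20. *Parp3*, which acts in DNA-break repair, rose by 1.71 and *Parp8* by 1.28, next to 1.61 for *Parp9* and 1.21 for *Zc3hav1*. *Parp16*, an endoplasmic reticulum enzyme, fell by 0.58. With the knockdown *Parp3* (0.17) and *Parp16* (0.42) were higher in unstimulated cells, and *Parp8* (-0.19), *Tnks* (-0.15) and *Parp4* (-0.13) were lower in treated cells, where the *Parp4* call was lost with library totals (adjusted p = 0.0760).

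Of 8 genes that remove or read ADP-ribose, *Adprh*, an ADP-ribosylarginine hydrolase, rose with IFN-β in shControl (0.36), and 3 fell, *Macrod1* (-1.07), *Adprs* (-0.53) and *Chd1l* (-0.40), where 48.2% of all genes were called. With library totals 1 was called higher and 6 lower in each population, against 1 and 2 in sh*Ppargc1b* with the reported scaling. *Hpf1*, the cofactor that directs PARP1 and PARP2 to serine, did not pass with IFN-β in shControl (0.01, and -0.23 with library totals, adjusted p = 0.0146) and was higher in unstimulated (0.38, adjusted p = 0.0016) and treated (0.26, adjusted p = 0.020) sh*Ppargc1b* cells. *Adprh* was higher in sh*Ppargc1b* in both treatments (0.17 and 0.15), *Macrod2* was higher (0.73) and *Macrod1* lower (-0.63) in unstimulated cells.

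Among 7 partners of *Parp1* in single-strand break repair, 5 fell with IFN-β in shControl and 2 rose. The shares of all genes were 24.6% called lower and 23.7% called higher. *Tdp1* (-0.79), *Aplf* (-0.51), *Lig3* (-0.43) and *Xrcc1* (-0.25) were among those that fell, *Polb* (0.62) rose, and *Aptx* rose (0.19) except with library totals, where its direction turned (-0.05, not called). The directions and counts were the same in sh*Ppargc1b*, where 21.2% of all genes were called lower and 21.4% higher. *Lig3* was higher with the knockdown in both treatments (0.23 and 0.20).

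Of 9 genes that act with ZAP in antiviral RNA decay or its control, 6 rose with IFN-β in shControl and 3 fell. For this list and the Deltex genes below, the shares of all genes were 23.7% called higher and 24.6% lower. With library totals *Riok3* turned from 0.12 to -0.12 (adjusted p = 0.00823) and *Dcp1a* was not called. *Zc3hav1l*, its paralogue (1.37), and *Trim25*, the ubiquitin ligase needed for its activity (1.33), rose, next to 1.21 for *Zc3hav1*, and the exosome subunit gene *Exosc7* fell by 0.82, as *Exosc5* and *Dhx30* also did. In IFN-β-treated cells *Trim25* (-0.19), *Khnyn* (-0.30) and *N4bp1* (-0.18) were lower in sh*Ppargc1b*, next to -0.18 for *Zc3hav1*, where 12.7% of all genes were called lower. In unstimulated cells 0 of the 9 passed by edgeR, DESeq2 or limma-voom (0 also at an unadjusted p under 0.05). Of the 4 other Deltex genes, *Dtx1* (1.66, on 93 counts over all libraries) and *Dtx2* (0.44) rose and *Dtx4* (-0.59) and *Dtx3* (-0.27) fell in shControl, and with library totals the *Dtx1* call was lost (adjusted p = 0.0726).

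The supply of NAD+, the substrate of these enzymes, was covered by 23 genes that make or use it, of which 22 were tested (*Sarm1* was not). With IFN-β in shControl 7 rose and 4 fell, where 48.2% of all genes were called. With library totals 5 were called higher and 10 lower, *Sirt2* turned from 0.23 to -0.01 and *Sirt1* was not called. That scaling also lowered the median of all genes from -0.03 to -0.27 and called 2598 of them higher and 8294 lower. The balance of the list thus depends on the scaling, as does that of all genes. *Kynu* of the kynurenine pathway rose by 1.56, the NAD+ hydrolase gene *Cd38* by 0.81 and *Nampt*, the rate-limiting enzyme of NAD+ salvage, by 0.77, while *Nnmt* fell by 1.90 on 76 counts over all libraries. *Nampt* was lower in unstimulated (-0.13, adjusted p = 0.039) and treated (-0.36, adjusted p = 2.1e-05) sh*Ppargc1b* cells, and its interaction did not pass (-0.23, adjusted p = 0.11). In unstimulated cells *Nadk2*, *Sirt2*, *Sirt3* and *Nnmt* were also lower and *Cd38* and *Nmnat2* higher, and in treated cells *Nadk2* was lower (-0.37) and *Nmnat3* higher (0.28).

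All 11 genes of interferon signalling rose with IFN-β in both populations, with *Usp18*, a negative regulator of the receptor (4.11), *Irf7* (4.02) and *Stat2* (2.66) in front in shControl. Called higher among all genes were 23.7% in shControl and 21.4% in sh*Ppargc1b*. In unstimulated cells *Irf7* (0.59), *Usp18* (0.58) and *Stat2* (0.21) were among those higher in sh*Ppargc1b*, as *Parp10* was. With the knockdown 12.4% of all genes were called higher in unstimulated cells and 12.7% lower in treated cells. In treated cells *Irf1* (-0.34) and *Tyk2* (-0.16) were lower, and of the 11 *Irf7* had an interaction past the threshold (-0.72, adjusted p = 0.0244), as did *Stat2* with RLE scaling (-0.32, adjusted p = 0.0445). The count of the 11 called lower in the interaction was 1 by edgeR (7 at an unadjusted p under 0.05), 2 by limma-voom and 6 by DESeq2. By edgeR 0.669% of all genes were called lower in the interaction.

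Likeness of pattern was described by Pearson's r of log2 CPM over the 12 libraries, among 8772 genes. The treatment contrast dominates these values, so that 262 to 329 genes had r over 0.99 with each interferon-responsive member. *Parp9* was most like *Dtx3l* (0.999), *Parp14* most like *Ifit1*, *Parp10* most like *Slc7a8*, *Parp11* most like *Slfn2*, *Parp12* most like *Irgm2* and *Zc3hav1* most like *Daxx*. For the comparators the closest genes were *C1qbp* for *Parp1* (0.988) and *Gas7* for *Parp2* (0.953).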

How the data were processed

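RNA-seq libraries were made by the authors from ribosomal-RNA-depleted RNA, trimmed with Trim Galore 0.6.0 and mapped to GRCm38 (mm10) with STAR, 2.7.8a per the submitters' processing notes. The deposited values were raw counts per GENCODE gene, with no normalization by the authors, and the strand setting of the counting is not given in the sources used here. All 12 value columns were used, and groups were taken from the labels.

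Genes were kept by filterByExpr (minimum count 10, minimum total 15), scaled by TMM and fitted by edgeR 4.0.16 quasi-likelihood in R 4.3.3 with 1 mean per group over all 12 libraries. The study's methods give edgeR, TMM and the quasi-likelihood F-test, and the filter limits and group means were chosen here. P-values were adjusted by Benjamini-Hochberg over all 18228 tested genes (threshold 0.05), and every adjusted p without another name is from edgeR. SE is the log2 fold change divided by the square root of F. Library totals of 49.9 M to 77.7 M counts gave every member at least 982 counts per library. The fit was tested on simulated data. Ratios were compared by exact two-sided permutation tests, with SciPy 1.17.1. Replicate pairs differed by more than sampling noise (chi-square per degree of freedom 9.48 to 24.2), so none was a repeated deposit of another.

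Alternatives were RLE scaling, library totals, all genes with at least 1 count, DESeq2 1.42.0, limma-voom (limma 3.58.1), only the groups compared, a term for each run of 4 library codes, leaving out each library, a family share without length scaling and the longer ISRE. Positions and exon lengths were from GENCODE M21 (GRCm38), a later release than the one the authors used. The members and lists were chosen with earlier results of these data known. The text names all members, of each list up to 3 genes with the largest change among those called for IFN-β in shControl and the members of counts of 5 or fewer, the neighbours within 100 kb, and the gene with the highest Pearson's r (mean log2 CPM of at least 3, prior count 2). Among the list genes, *Nampt*, *Hpf1*, *Riok3*, *Dcp1a*, *Sirt1*, *Khnyn* and further genes outside the 3 largest were named after their values were seen. Some genes that these rules would name are not reported here.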

Additional observations from a re-analysis of the deposited data

Results flagged for a closer look

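The response of *Parp10* to IFN-β differed between sh*Ppargc1b* and shControl cells in the interaction test across all genes, at -0.46 on the log2 scale (edgeR adjusted p = 0.00937). The response of *Parp11* differed in the same test, at -0.43 (adjusted p = 0.0205). The *Parp11* result was not past the threshold without shControl unstimulated replicate 1 (0.0593) or 3 (0.0869).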

How the results depend on the processing

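The rises of the 7 interferon-responsive members and the fall of *Parp1* with IFN-β kept direction and call in both populations under every alternative, and so did *Parp10* in each comparison. Scaling by library totals called 2598 genes higher and 8294 lower with IFN-β in shControl and 2340 and 7551 in sh*Ppargc1b*, with 2 members lower in each (*Parp1* and *Parp2*), and 17 and 67 in the interaction, where the reported fit called 11 and 122. *Parp2* then changed by -0.24 with IFN-β in shControl and its interaction was 0.027. With all genes of at least 1 count, 0 members were lower in unstimulated sh*Ppargc1b* cells, the interaction called 103 genes higher and 422 lower, *Parp2* changed by -0.0066 with IFN-β in shControl, and *Dtx3l* and *Zc3hav1* by 0.0082 and 0.012 with the knockdown in unstimulated cells. With only the groups compared 0 members were lower in unstimulated cells as well. DESeq2 called 4 members (*Parp12* and *Zc3hav1* besides), 85 genes higher and 367 lower in the interaction, and a term for runs of library codes 86 and 339. *Parp2* changed by 0.0021 (RLE) and 0.0019 (DESeq2) with IFN-β in sh*Ppargc1b*. Without length scaling the 6 PARP genes held 75.8% and 74.8% of the treated shControl and sh*Ppargc1b* family. Leaving out 1 library at a time gave 1 to 2 members higher and 0 to 1 lower in unstimulated cells, and 1 to 3 lower in the interaction, with 4 to 56 genes higher and 32 to 215 lower there. The same turned direction for values near 0: *Parp2* with IFN-β (-0.066 to 0.037 in shControl, -0.020 to 0.015 in sh*Ppargc1b*) and in the interaction (-0.041 to 0.063), *Parp9* (-0.022 to 0.036), *Parp11* (-0.033 to 0.079), *Dtx3l* (-0.063 to 0.036) and *Zc3hav1* (-0.034 to 0.0053) with the knockdown in unstimulated cells, *Parp1* with the knockdown in treated cells (-0.027 to 0.12) and in the interaction (-0.12 to 0.024), and *Ppargc1b* with IFN-β in sh*Ppargc1b* (-0.15 to 0.066). The causes were not tested. The labels number no replicates, so the only grouping of libraries across groups that could be tried was the term for runs of library codes, of which the labels do not say what a run is, and among the members it changed 1 call, that of *Parp12* in the interaction (adjusted p = 0.0222 against 0.107). In some groups *Parp1*, *Parp2*, *Parp10*, *Parp11* and *Zc3hav1* spread less between libraries than counting error alone would give. For *Zc3hav1* this was so in both IFN-β groups. With 3 libraries a group the precision is limited.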
